A study of Mus musculus with 24 samples.

Results

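The 9 genes described here are a part of those that encode Fc receptors and Fc receptor-like proteins of the mouse: Fcer1g, Fcgr1, Fcgr3, Fcgr4, Fcgr2b, Fcgrt, Fcrl1, Fcrl5 and Fcrla. They were taken by gene symbol, as 9 of the 39017 genes of a deposited count table, and all 9 passed the filter on low counts that left 18093 genes for testing. The table holds RNA sequencing of dendritic cells sorted by flow cytometry from the spleens of mice of a C57BL/6 x FVB/N F1 cross. The ITD mice were Flt3 ITD/+, heterozygous for an internal tandem duplication in the receptor of the dendritic cell growth factor, and the WT mice were Flt3 +/+. The labels give no age and no treatment, and do not say whether a library holds 1 animal or a pool, so p-values measure the spread between libraries of independent experiments. The subsets were PDC, commonly short for plasmacytoid dendritic cells, then CD8+ cells in a canonical (C_CD8) and a non-canonical (NC_CD8) form, and CD11b+ cells with high (Esamhi) or low (Esamlo) surface Esam. All subsets other than PDC are called conventional below, as a short name only, and the plasmacytoid markers of NC_CD8 cells are given with the marker levels.

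C_CD8 and NC_CD8 cells gave 3 libraries each per genotype, from experiment batches B, C and D. Each genotype had 2 libraries of PDC, from batches A and B, and 2 each of Esamhi and Esamlo cells, from batches C and D. Each ITD library thus had a WT library of its own subset and batch, 12 pairs in all. The libraries held 11197145 to 22248404 counts. Levels are in CPM, a gene's counts scaled to the library's TMM-adjusted total, and a mean ± SD is taken within a group. Levels of different genes are compared only as CPM per kb, that is per kilobase of all annotated exons of the gene.

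Fc receptors bind the constant part of antibodies. The activating Fcγ receptors signal through the ITAM of a shared γ chain, which recruits the kinase Syk, whereas the inhibitory receptor carries an ITIM that recruits the phosphatase SHIP-1. Dendritic cells use the balance of both kinds to set their response to immune complexes, and use the neonatal Fc receptor to route IgG within the cell. The Fc receptor-like genes are relatives known mainly from B cells.

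The genes of the inhibitory receptor Fcgr2b and the activating receptor Fcgr3 lie close together on chromosome 1 and resemble each other, so a stretch in which their reads cannot be told apart is shown here. On build GRCm38, Fcgr2b lies at chr1:170958617-170976547 and Fcgr3 at chr1:171051174-171064935, both on the minus strand. Of all 50-base words in the transcripts, 6.95% of those of Fcgr2b and 9.58% of those of Fcgr3 also occur in another gene. The longest coding run that both share is 129 bases, in exons 3 and 4 of each gene. It lies at chr1:170967980-170968081 and chr1:170966674-170966700 in Fcgr2b, and at chr1:171057691-171057792 and chr1:171054167-171054193 in Fcgr3. It is identical in both genes:
Fcgr2b and Fcgr3: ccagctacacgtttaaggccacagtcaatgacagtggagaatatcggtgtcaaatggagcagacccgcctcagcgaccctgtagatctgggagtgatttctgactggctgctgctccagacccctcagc
Reads within it can be split between the 2 genes or dropped, depending on the counter, which is not given in the sources used here. Fcgr2b exons also overlap those of an antisense gene, Gm38204, by 155 bases, and the strandedness of the counts is not given either. Fcer1g, Fcgr1, Fcgr4, Fcgrt, Fcrl1, Fcrl5 and Fcrla share no 50-base word with another gene. Fcgr4 (chr1:171018920-171029761, plus strand), Fcer1g (chr1:171229572-171234365, minus strand) and Fcrla (chr1:170917576-170927583, minus strand) are on the same chromosome. Fcgr1 (chr3:96282909-96293969, minus strand), Fcrl1 (chr3:87376387-87402934, plus strand) and Fcrl5 (chr3:87435773-87500678, plus strand) are on chromosome 3. Fcgrt (chr7:45092990-45103851, minus strand) is on chromosome 7.

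The 250 bases before the RefSeq start are shown for Fcer1g, Fcrl1 and Fcrla, which have the widest gaps in level between neighbouring subsets given below and were picked after their values were seen. RefSeq promoters (GRCm38.p6) matched all 9 members. Capitals mark matches to GAGGAA, the Ets core bound by PU.1, or to the pair GAAA, any 2 bases, GAAA of interferon response elements, on either strand.
Fcer1g (chr1:171234350-171234599, minus strand): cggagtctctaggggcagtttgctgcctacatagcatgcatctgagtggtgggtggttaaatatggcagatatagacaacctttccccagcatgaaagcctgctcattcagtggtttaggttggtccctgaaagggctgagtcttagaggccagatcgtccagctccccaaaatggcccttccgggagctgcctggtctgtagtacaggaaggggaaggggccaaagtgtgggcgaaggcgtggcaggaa
Fcrl1 (chr3:87376137-87376386, plus strand): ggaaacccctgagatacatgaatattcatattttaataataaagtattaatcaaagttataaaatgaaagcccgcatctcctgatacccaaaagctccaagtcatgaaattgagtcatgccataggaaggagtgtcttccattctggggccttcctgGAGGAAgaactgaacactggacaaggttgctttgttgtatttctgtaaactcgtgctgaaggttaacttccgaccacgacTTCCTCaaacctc
Fcrla (chr1:170927584-170927833, minus strand): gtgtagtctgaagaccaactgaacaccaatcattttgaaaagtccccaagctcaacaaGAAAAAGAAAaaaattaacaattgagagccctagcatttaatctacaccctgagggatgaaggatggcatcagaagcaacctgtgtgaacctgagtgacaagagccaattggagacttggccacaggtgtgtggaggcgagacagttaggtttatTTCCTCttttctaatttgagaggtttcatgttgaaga
GAGGAA occurs in 23.3% and the GAAA pair in 2.98% of 32851 RefSeq promoter windows of 250 bases. The Fcrl1 window held GAGGAA beginning at 93 and at 13 bases before the start, and the Fcrla window held 1 match of each motif. The Fcgr4 window also held both, and those of Fcgr1 and Fcgr3 held GAGGAA. Fcgr1 alone among the members held the palindromic element TTC, any 3 bases, GAA, found in 7.02% of windows. The windows of Fcer1g, Fcgr2b, Fcgrt and Fcrl5 held none of these letters. A match is a run of letters and not a binding site.

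**Figure D1:**
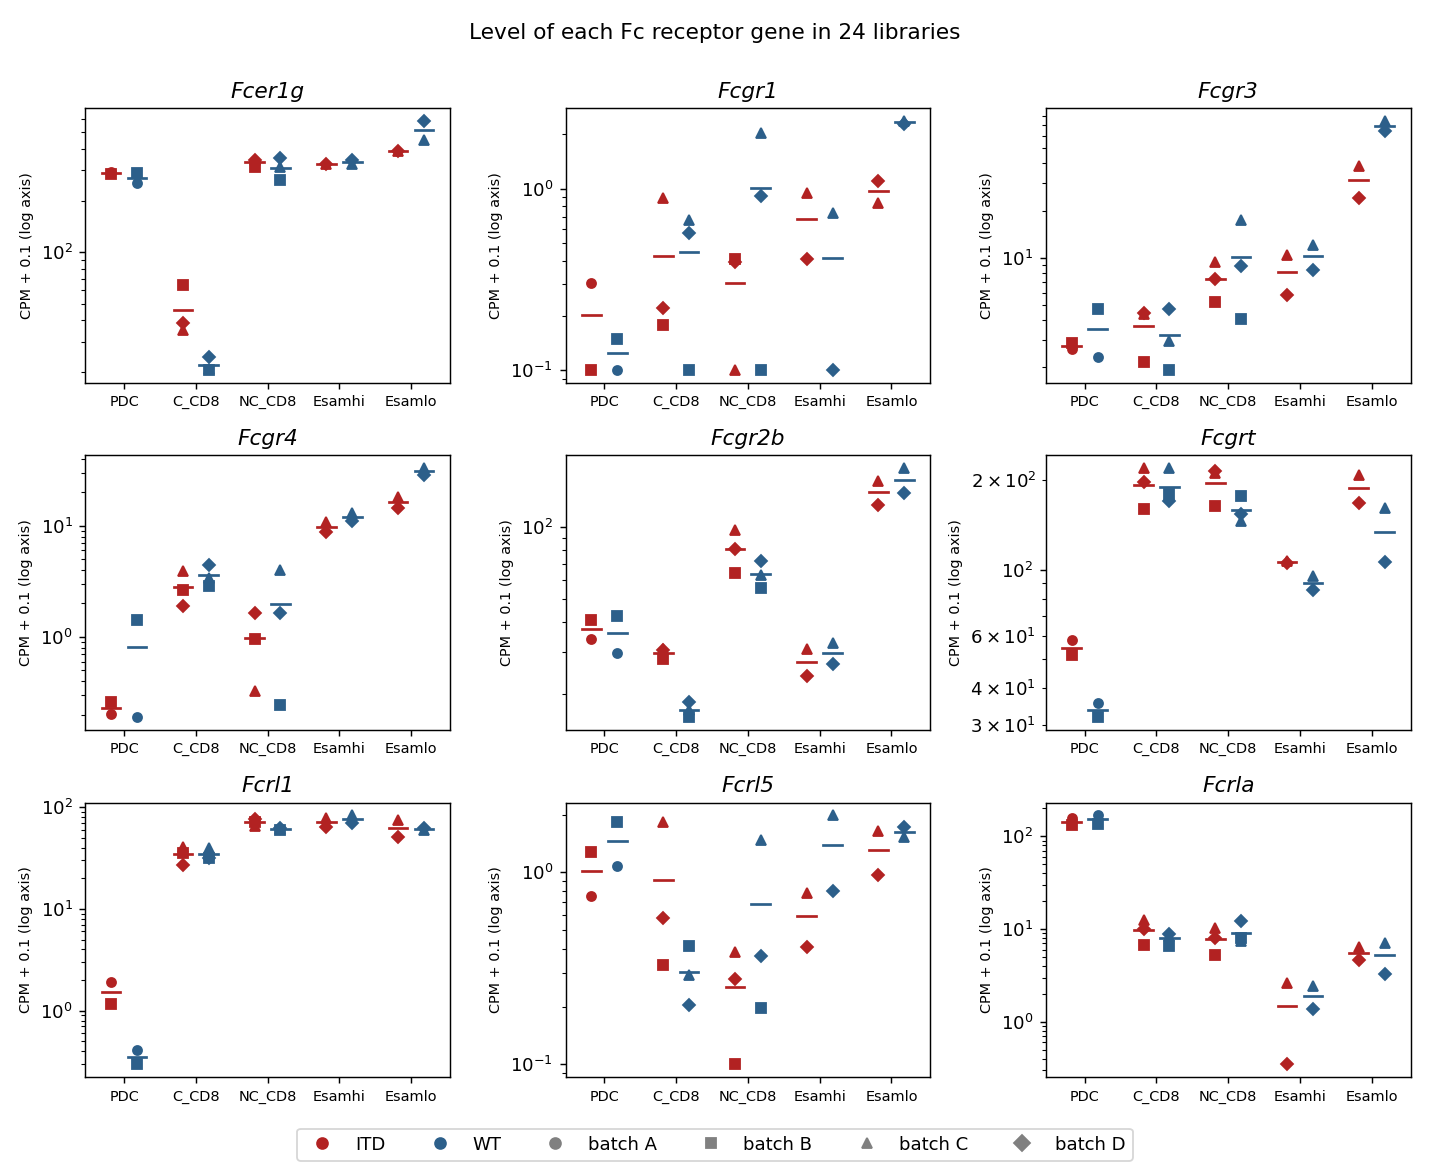
Level of each of the 9 genes in every library (CPM + 0.1, log axis) by subset, with ITD libraries (red) left of WT libraries (blue). Symbols give the experiment batch and bars the group mean; Fcer1g is lowest in C_CD8 cells, Fcrla stands out in PDC and Fcrl1 is nearly absent there.

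Fixed markers of dendritic cells were read in the sorts. Flt3, Itgax, H2-Ab1, Cd74 and Zbtb46 together summed to 17075 to 18529 CPM in PDC of ITD mice and 14718 to 15887 CPM in PDC of WT mice. In every other library they summed to 38145 CPM or more. All 5 had reads in all 10 groups, which is no check of identity, since most markers of other cells had reads too. Siglech, a lectin of plasmacytoid cells, was at 4508 to 4902 CPM in PDC of ITD mice and 4855 to 5386 CPM in PDC of WT mice. NC_CD8 cells came next, with 113 to 170 CPM in ITD and 212 to 291 CPM in WT mice, and all remaining libraries had at most 27.5 CPM. The sum of 10 plasmacytoid markers was 1036 to 1561 CPM in ITD and 1157 to 1547 CPM in WT libraries of NC_CD8 cells. In C_CD8, Esamhi and Esamlo libraries it was at most 397 CPM. Marker genes of other splenic cells with Fc receptors also had reads, and which cells these came from was not tested. WT NC_CD8 replicate 2, from batch C, stood apart with summed red pulp macrophage markers of 1115 CPM, where the other NC_CD8 WT libraries had 47.4 and 318 CPM. NK cell markers summed to 83.5 CPM in it and to 84.6 CPM in WT NC_CD8 replicate 3. They summed to 5.39 CPM in WT replicate 1 and to 6.35 to 15.3 CPM in ITD NC_CD8 libraries. Replicate 2 had the highest NC_CD8 levels of Fcgr1, Fcgr3 and Fcgr4, and values without it are given beside some results of these genes below.

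Which subsets express which receptor was asked first, in a test over the 5 subsets of each genotype. In ITD mice, 7 of the 9 genes differed in level among subsets, and in WT mice the same 7 did: Fcer1g, Fcgr3, Fcgr4, Fcgr2b, Fcgrt, Fcrl1 and Fcrla (edgeR quasi-likelihood F test, adjusted p from 8e-10 to 0.000186 in ITD and from 1.24e-10 to 0.000256 in WT). Among all genes tested, 44.7% passed in ITD and 46.7% in WT subsets. Fcgr1 and Fcrl5 had at most 2.26 CPM in any library and did not pass. With the experiment batch as a block, Fcrl5 passed as well (adjusted p = 0.0189 in ITD and 0.00897 in WT), among 62.4% of all genes in ITD and 64.1% in WT subsets. Over the 10 pairs of subsets, 40 of 90 comparisons of a gene between 2 ITD subsets and 49 of 90 between 2 WT subsets passed. Over all genes, 19.1% and 20.1% of such comparisons did. In bulk samples, fewer cells that express a gene and less RNA per cell cannot be told apart.

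The γ chain Fcer1g was abundant in every subset except the canonical CD8+ cells. In C_CD8 cells it was at 64.1, 34.9 and 38.5 CPM in ITD mice, against 20.4, 20.6 and 24.3 CPM in WT mice. In every library of the other subsets it was at 252 CPM or more, so that C_CD8 libraries did not overlap with any of them. Among WT subsets, C_CD8 differed from PDC, the neighbour above it in level, by log2 -3.63 ± 0.21 (SE, adjusted p = 4.54e-10). NC_CD8 cells, sorted as CD8+ cells too, were higher than C_CD8 cells by log2 3.83 ± 0.20 in WT mice (adjusted p = 1.05e-09). PDC, NC_CD8 and Esamhi cells of WT mice, at 270 ± 25.1, 310 ± 44.5 and 337 ± 12 CPM, did not differ beyond their spread between neighbours. Esamlo cells were highest, at 387 ± 0.195 CPM in ITD and 518 ± 93.4 CPM in WT mice (n = 2 each).

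Per kb of exon, the level of the γ chain exceeded that of each Fcγ receptor in every group. In Esamlo cells it was at 443 CPM per kb in ITD and 592 CPM per kb in WT mice, where Fcgr3 was at 18 and 40, Fcgr2b at 24 and 27.1 and Fcgr4 at 12.9 and 24.5 CPM per kb. In C_CD8 cells it was at 52.4 CPM per kb in ITD and 24.9 CPM per kb in WT mice. The γ chain is also used by receptors other than those for antibodies.

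The activating receptors had their highest levels in the Esamlo fraction. Fcgr3, a low-affinity receptor for immune complexes, had 38.6 and 23.8 CPM in Esamlo cells of ITD mice and 74.7 and 64.2 CPM in those of WT mice. The highest of all other libraries was 17.4 CPM, in WT NC_CD8 replicate 2. In WT mice Esamlo exceeded Esamhi cells by log2 2.77 ± 0.58 (adjusted p = 0.0329). The call ended when any of the 4 libraries concerned was left out (adjusted p from 0.0603 to 0.411), and held with the batch block (adjusted p = 0.000163). In ITD mice the difference was log2 1.95 ± 0.57 (adjusted p = 0.207; 0.00322 with the batch block). Esamhi, NC_CD8, PDC and C_CD8 cells followed in the WT order at 10.2, 10.1, 3.42 and 3.11 CPM. NC_CD8 exceeded C_CD8 cells of WT mice by log2 1.69 ± 0.47 (adjusted p = 0.0139). The value was 1.03 (adjusted p = 0.122) without NC_CD8 WT replicate 2 and 1.46 (adjusted p = 0.0625) without C_CD8 WT replicate 1. NC_CD8 exceeded PDC by log2 1.56 ± 0.54 (adjusted p = 0.0411), and this call ended without NC_CD8 WT replicate 2 (0.89, adjusted p = 0.229), NC_CD8 WT replicate 3 (1.64, adjusted p = 0.0574) or PDC WT replicate 1 (1.10, adjusted p = 0.277). It also ended with the batch block (0.37, adjusted p = 0.463). Esamlo exceeded NC_CD8 cells by log2 2.79 ± 0.50 (adjusted p = 0.00283), and by 3.45 (adjusted p = 0.00112) without NC_CD8 WT replicate 2.

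**Figure D2:**
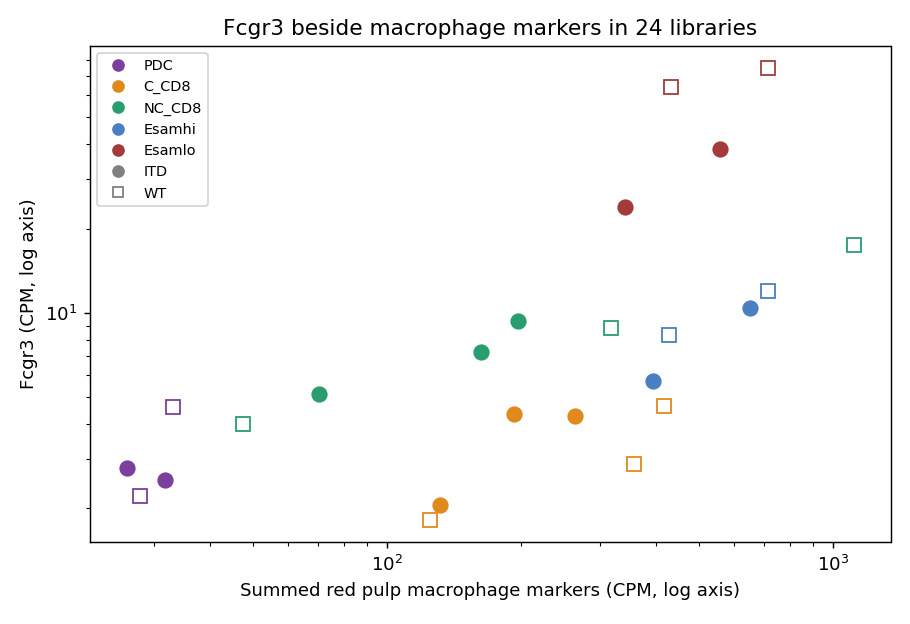
Fcgr3 level (CPM, log axis) against the summed level of 14 red pulp macrophage markers (CPM, log axis) in the 24 libraries; filled circles are ITD, open squares WT, colours are subsets. The 4 Esamlo libraries lie highest at 23.8 to 74.7 CPM of Fcgr3, and WT NC_CD8 replicate 2 lies farthest right at 1115 CPM.

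Markers of other cells that carry Fcgr3 were read beside these levels. Macrophage sums in Esamlo cells were 342 to 558 CPM in ITD and 432 to 713 CPM in WT mice, and in Esamhi cells 394 to 650 CPM in ITD and 428 to 713 CPM in WT mice. The ranges of the 2 CD11b+ fractions overlapped. NK cell markers summed to 13.6 and 17.3 CPM in Esamlo and 8.02 and 2.9 CPM in Esamhi cells of ITD mice, and to 64.7 and 45 CPM in Esamlo and 34.4 and 7.6 CPM in Esamhi cells of WT mice, without overlap in either genotype. Neutrophil markers summed to 42.1 and 28.9 CPM in Esamlo and 40.4 and 13.4 CPM in Esamhi cells of ITD mice, and to 68.5 and 61.1 CPM in Esamlo and 44 and 14.1 CPM in Esamhi cells of WT mice, without overlap in WT mice. Monocyte markers, many of which CD11b+ dendritic cells also express, summed to 6073 to 6997 CPM in Esamlo and 4088 to 4999 CPM in Esamhi cells of ITD mice. In WT mice they summed to 6610 to 8023 CPM in Esamlo and 3882 to 5146 CPM in Esamhi cells. The part of these cells in the Fcgr3 difference was not tested.

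Fcgr4, another activating receptor that needs the γ chain, was also highest in Esamlo and next highest in Esamhi cells. Unlike Fcgr3, it had a higher mean in C_CD8 than in NC_CD8 cells, at 2.71 against 0.874 CPM in ITD and 3.48 against 1.86 CPM in WT mice. That difference did not pass in edgeR (adjusted p = 0.134 in ITD and 0.395 in WT). It was at 18 and 14.4 CPM in Esamlo cells of ITD mice and at 33.1 and 28.4 CPM in those of WT mice. Esamhi cells had 10.8 and 8.71 CPM in ITD and 13 and 10.9 CPM in WT mice, so that the 2 fractions did not overlap within a genotype. The difference between them did not pass the test in WT mice (log2 1.37 ± 0.84, adjusted p = 0.669). Esamlo exceeded NC_CD8 cells of WT mice by log2 4.04 ± 0.80 (adjusted p = 0.00646; 5.25 and 0.0031 without NC_CD8 WT replicate 2) and C_CD8 cells by 3.14 ± 0.77 (adjusted p = 0.0091). In PDC 3 of the 4 libraries had 2 or 3 reads, and the WT library of batch B had 27. With that library, neither C_CD8 nor NC_CD8 cells of WT mice passed against PDC (edgeR adjusted p = 0.053 and 0.275). Without it, the differences were log2 5.14 and 4.27, with 1 WT PDC library left, from batch A, which held no CD8+ library. Within batch B, WT libraries had 53 reads in C_CD8 cells, 3 in NC_CD8 cells and 27 in PDC. The other NC_CD8 WT libraries had 79 reads (replicate 2) and 23 (replicate 3). With the batch block, NC_CD8 against PDC was log2 -0.08 (adjusted p = 0.958).

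Fcgr1, the high-affinity receptor, was at the limit of detection in most libraries. Esamlo cells of ITD mice had 8 and 16 reads (0.728 and 0.999 CPM), and those of WT mice had 38 and 36 reads (2.26 and 2.17 CPM). All other libraries had at most 15 reads except WT NC_CD8 replicate 2, with 39. Esamlo cells of WT mice had 74 reads over both libraries, against 1 read in PDC, a ratio of 94.9 in summed CPM (exact 95% interval 16.5 to 3800, which covers counting error only). The difference passed the test (adjusted p = 0.0413). This call ended with the batch block (adjusted p = 0.19) and without any of the 4 libraries (adjusted p from 0.074 to 0.19).

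The inhibitory receptor Fcgr2b was also highest in Esamlo cells, and it separated the 2 kinds of CD8+ cells. Esamlo cells had 155 and 123 CPM in ITD and 176 and 138 CPM in WT mice. NC_CD8 cells came next, with 63.7, 97.1 and 80.6 CPM in ITD and 55.6, 62.9 and 71.9 CPM in WT mice. C_CD8 cells had 27.8, 30.8 and 30.5 CPM in ITD and 15.9, 17 and 18.5 CPM in WT mice. In WT mice NC_CD8 exceeded C_CD8 cells by log2 1.89 ± 0.19 (adjusted p = 1.01e-06), and Esamlo exceeded NC_CD8 cells by 1.31 ± 0.20 (adjusted p = 0.000683). Esamhi, the sister fraction of Esamlo within CD11b+ cells, had only 29.7 ± 4.28 CPM in WT mice, and Esamlo exceeded it by log2 2.40 ± 0.23 (adjusted p = 5.37e-05). PDC (35.8 ± 8.86 CPM) and Esamhi of WT mice were neighbours that did not differ without the block (log2 -0.27 ± 0.22 in Esamhi against PDC, adjusted p = 0.386). With the batch block they did (log2 -0.72, adjusted p = 0.00558), although PDC and CD11b+ libraries share no batch.

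The ratio of Fcgr2b to Fcgr3, each per kb, sets the inhibitory against the activating low-affinity receptor within a library. In PDC it was 4.04 and 4.38 in ITD and 3.99 and 2.73 in WT mice. In Esamhi cells it was 0.886 and 1.25 in ITD and 0.817 and 0.964 in WT mice. In Esamlo cells it was 1.2 and 1.54 in ITD mice, against 0.707 and 0.645 in WT mice. In C_CD8 cells it was 4.05, 2.15 and 2.1 in ITD and 2.61, 1.77 and 1.2 in WT mice, and in NC_CD8 cells 3.73, 3.13 and 3.33 in ITD and 4.17, 1.09 and 2.45 in WT mice. PDC libraries thus lay at or above 2.73 and CD11b+ libraries at or below 1.54, and CD8+ libraries, from 1.09 to 4.17, overlapped with both. The ratio depends on the exon lengths used, 5.79 kb for Fcgr2b and 1.736 kb for Fcgr3, so that its distance from 1 has no meaning of its own.

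**Figure D3:**
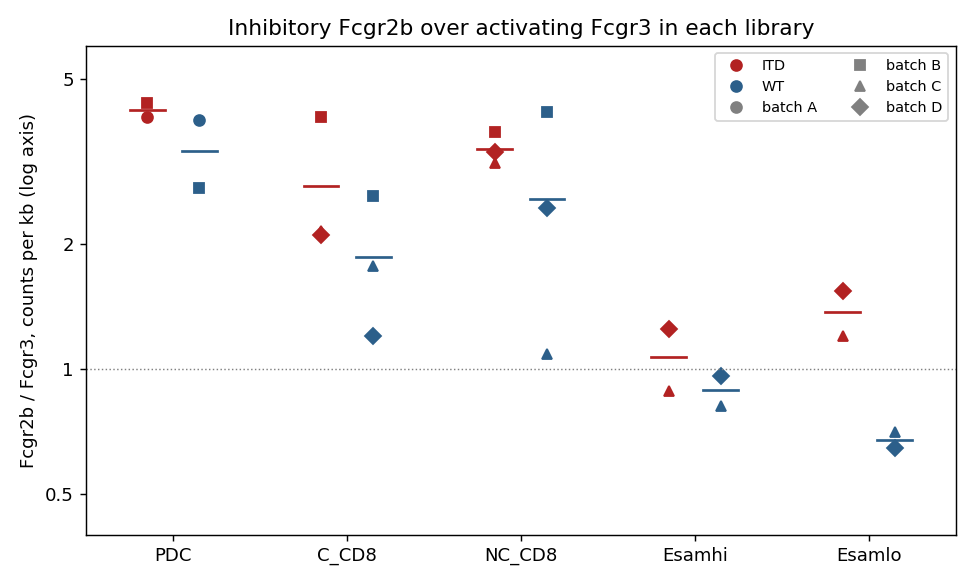
Ratio of Fcgr2b to Fcgr3 counts per kb of exon in every library (log axis) by subset, ITD (red) left of WT (blue), with symbols for batches and bars for means. Esamlo ITD libraries lie at 1.2 and 1.54 and WT libraries at 0.707 and 0.645, without overlap. In PDC the genotypes are barely apart, at 4.04 (ITD) and 3.99 (WT) in batch A, where Fcgr3 had 50 reads in each library. In the other subsets they overlap. The ratio was not tested, and Esamlo cells and PDC have 2 libraries per genotype.

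Fcgrt, the heavy chain of the neonatal Fc receptor that salvages IgG and albumin, was present in all subsets and lowest in PDC. PDC had 57.8 and 51.5 CPM in ITD and 35.6 and 31.8 CPM in WT mice. Every other library had at least 85.5 CPM. Esamhi cells stood next, at 106 ± 1.71 CPM in ITD and 90.4 ± 7 CPM in WT mice, and exceeded PDC by log2 1.42 ± 0.21 in WT mice (adjusted p = 4.62e-05). C_CD8, NC_CD8 and Esamlo cells of WT mice had 190 ± 25.8, 159 ± 16.1 and 134 ± 38.8 CPM, and neighbours in this order did not differ beyond their spread. Esamlo was below C_CD8 cells by log2 -0.84 (adjusted p = 0.0224) without Esamlo WT replicate 1 and by -0.56 (adjusted p = 0.0125) with the batch block, but did not pass otherwise in the alternatives run. Esamhi was below C_CD8 cells by log2 -1.07 ± 0.20 in WT mice (adjusted p = 0.000672).

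Fcrl1 and Fcrla, both known as B cell genes, had opposite patterns. Fcrl1, a surface receptor of B cells, was at 26.9 to 77.8 CPM in the conventional subsets of ITD mice and at 31.4 to 83.5 CPM in those of WT mice. In PDC it was at 1.81 and 1.07 CPM in ITD mice and at 0.311 and 0.197 CPM in WT mice. C_CD8 cells, the lowest of the other subsets, exceeded PDC by log2 7.02 ± 0.33 in WT mice (adjusted p = 4.82e-11). Within batch B, which held both, the WT libraries had 31.4 CPM in C_CD8 cells and 0.197 CPM in PDC. NC_CD8 exceeded C_CD8 cells of WT mice by log2 0.84 ± 0.19 (adjusted p = 0.00262), and neighbours among Esamhi, NC_CD8 and Esamlo cells did not pass the test, although the Esamhi libraries did not overlap with the NC_CD8 libraries.

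Fcrla, a protein retained inside B cells that binds immunoglobulin there, was at 157 and 132 CPM in PDC of ITD mice and at 170 and 137 CPM in PDC of WT mice. All other libraries had at most 12.3 CPM. In WT mice the next subset, NC_CD8, was below PDC by log2 -4.08 ± 0.48 (adjusted p = 3.99e-06), and Esamhi, the lowest, by -6.39 ± 0.65 (adjusted p = 5.5e-07). Across the 24 libraries Fcrl1 and Fcrla had r = -0.862 in log2 CPM, a description that rests mainly on PDC against the rest. A pseudogene, Gm2962, lies within the Fcrla locus but shares no exon base with it.

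B cell markers were read beside these 2 genes. Pax5, the factor that defines B cells, had 0 reads in all 4 PDC libraries. The list of 13 measured markers summed to 2266 to 2933 CPM in PDC of ITD mice and 2403 to 3082 CPM in those of WT mice, of which Ighm alone was 2211 to 2995 CPM. In the conventional subsets, all 13 markers had reads in every group, and the sum was 392 to 921 CPM in ITD and 445 to 1231 CPM in WT libraries. The part of B cells in the Fcrl1 level of those subsets was not tested.

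Fcrl5, a receptor of marginal zone B cells, stayed low, with 0 to 33 reads in ITD libraries and 2 to 35 in WT libraries. C_CD8 cells of WT mice, with 12 reads over 3 libraries, were below PDC, with 57 reads over 2 libraries, by log2 -2.69 ± 1.01 (adjusted p = 0.0439). This call ended without any of the 5 libraries (adjusted p from 0.0543 to 0.181).

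The pairs of WT subsets differed in how many members passed. Esamlo against PDC gave 8 of 9, among 30.2% of all genes, with Fcrla lower in Esamlo and the other 7 higher. Without Esamlo WT replicate 2, Fcer1g did not pass there (log2 0.74, adjusted p = 0.0596). Esamlo against C_CD8 gave 5 (16% of all genes), all higher in Esamlo: Fcgr2b, Fcgr3, Fcgr4, Fcer1g and Fcrl1, the last not without Esamlo WT replicate 2 (log2 0.80, adjusted p = 0.0826). Esamlo against NC_CD8 gave 4, all higher in Esamlo (4.08%): Fcgr2b, Fcgr3, Fcgr4 and Fcer1g. The Fcer1g value of log2 0.74 ± 0.20 (adjusted p = 0.0438) did not pass without any 1 of the 5 libraries (adjusted p from 0.0501 to 0.432), with RLE factors (0.0535) or without the filter (0.0567). Esamlo against Esamhi gave 2, Fcgr2b and Fcgr3, both higher (0.658%). Esamhi against C_CD8 gave 6 (23.5%). Of these, Fcgr3 did not pass without C_CD8 WT replicate 1 or 2 or Esamhi WT replicate 1 (adjusted p from 0.0591 to 0.158), Fcgr2b without Esamhi WT replicate 1 (0.0969) and Fcrla without Esamhi WT replicate 2 (0.124). Esamhi against PDC gave 5 (30.6%), of which Fcgr3 did not pass without PDC WT replicate 1 or either Esamhi library (adjusted p from 0.0713 to 0.271). With the batch block, Fcgr3 (log2 0.18 against 1.57 without it, adjusted p = 0.773) and Fcgr4 (log2 2.51 against 4.09, adjusted p = 0.0578) did not pass there. Esamhi against NC_CD8 gave 4 (6.34%), Fcgr4 higher and Fcgr2b, Fcgrt and Fcrla lower in Esamhi, and all 4 calls ended without Esamhi WT replicate 2 (adjusted p from 0.0903 to 0.223). Fcgr4 also ended without Esamhi WT replicate 1 or NC_CD8 WT replicate 1 or 3 (0.202, 0.105 and 0.147). Fcgrt also ended without Esamhi WT replicate 1 or NC_CD8 WT replicate 1 (0.0901 and 0.0603), and Fcrla without Esamhi WT replicate 1 or NC_CD8 WT replicate 3 (0.0714 and 0.0536). NC_CD8 against C_CD8 gave 4, all higher in NC_CD8 (25%): Fcgr2b, Fcgr3, Fcer1g and Fcrl1. NC_CD8 against PDC gave 5 (26.4%), of which Fcgr2b did not pass without PDC WT replicate 1 (0.118), and C_CD8 against PDC gave 6 (37.8%). A share of the members near the background is no result about them, and with 9 members each count moves in large steps.

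Genes of similar pattern were ranked by Pearson r of log2 CPM over the 24 libraries, which share subsets and batches. For Fcer1g these were Zeb2 (r = 0.981), S100a6 (0.975) and Cd209a (0.965). For Fcrl1 they were Adam23 (0.987), Sulf2 (0.983) and H2-Ob (0.982). For Fcrla they were Ccr9 (0.961), the chemokine receptor of plasmacytoid cells, with Pdia4 (0.96) and Matn2 (0.952). Sema4a was nearest to Fcgrt (0.982), Ear2 to Fcgr4 (0.961), G6pd2 to Fcgr2b (0.92) and Clec4a3 to Fcgr3 (0.914). Fcgr1 and Fcrl5, with few reads, had lower values, at 0.808 with Fpr1 and 0.839 with Pola2.

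The other genes of the pathway also varied with subset. Of 28 genes of Fc receptor signalling, 23 differed among ITD subsets and 23 among WT subsets, where 44.7% and 46.7% of all genes did. Fyn, a Src family kinase, was at 1386 ± 40.1 CPM in PDC of ITD and 1494 ± 184 CPM in PDC of WT mice, against at most 383 CPM in any other library (adjusted p = 2.4e-11 over ITD and 1.27e-11 over WT subsets). Blnk, an adaptor of B cell receptor signalling, was at 337 ± 84.9 CPM in PDC of ITD and 381 ± 106 CPM in PDC of WT mice, and at 73.9 ± 17.4 and 50.8 ± 14.7 CPM in NC_CD8 cells of ITD and WT mice.

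Tyrobp (DAP12), the other ITAM chain shared by myeloid receptors, differed from the γ chain in its distribution. It was at 269 ± 56.9 CPM in C_CD8 cells of ITD and 253 ± 38 CPM in those of WT mice, where Fcer1g was at 45.8 ± 15.9 and 21.8 ± 2.21 CPM. In PDC it was at 1654 ± 95.9 CPM in ITD and 1749 ± 127 CPM in WT mice. Of 14 other receptors that use either chain, 11 were tested, and 8 differed among ITD and 10 among WT subsets (44.7% and 46.7% of all genes). Sirpb1a was at 282 ± 33.7 CPM in Esamhi cells of ITD and 283 ± 31.8 CPM in those of WT mice, and at 1.04 ± 0.0443 and 1.11 ± 1 CPM in PDC. Of 9 other receptors for immunoglobulins, 7 were tested, and 1 differed among ITD and 2 among WT subsets, a lower share than the 44.7% and 46.7% of all genes. Fcer2a, the low-affinity receptor for IgE, was highest in Esamlo cells at 11.7 ± 0.762 CPM in ITD and 12 ± 0.908 CPM in WT mice (adjusted p = 0.000843 over ITD and 0.000518 over WT subsets).

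The effect of the Flt3 mutation was then tested within each subset. In edgeR without a block, Fcrl1 in PDC was the only member that passed in any subset, 1 of 9, where 0.0608% of all genes passed. PDC of ITD mice had 36 and 20 reads (1.81 and 1.07 CPM), against 7 and 4 reads (0.311 and 0.197 CPM) in WT mice. Both ITD libraries lay above both WT libraries, a rise of log2 2.47 ± 0.38 (adjusted p = 0.0139; 0.021 with the pair as a block, where 0.249% of all genes passed). Even so, the ITD level stayed below that of any library of another subset, which had at least 26.9 CPM. The call ended without WT replicate 1, WT replicate 2 or ITD replicate 1 (adjusted p = 0.0749, 0.174 and 0.279).

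Markers of conventional dendritic cells, which express Fcrl1, were read beside this rise. Zbtb46, their defining factor, had 77 and 112 reads in PDC of ITD mice and 70 and 67 reads in those of WT mice. Xcr1 had 114 and 27 reads in ITD and 31 and 30 reads in WT mice. The sum of 10 type 2 dendritic cell markers was 2235 to 2296 CPM in ITD and 1889 to 1998 CPM in WT mice. That of 10 type 1 markers was 4490 to 7084 CPM in ITD and 4499 to 6783 CPM in WT mice. In NC_CD8, Esamhi and Esamlo libraries the type 1 sum was at most 2561 CPM, below every PDC library. The type 2 sum was 1715 to 2081 CPM in ITD and 1410 to 1746 CPM in WT libraries of NC_CD8 cells, below the PDC libraries of the same genotype. In C_CD8 libraries it was at most 252 CPM. Neither sum can therefore count conventional cells among PDC. The part of conventional cells in the rise was not tested. Fcgrt in PDC, at 57.8 and 51.5 CPM in ITD against 35.6 and 31.8 CPM in WT mice, had log2 0.70 ± 0.21 and did not pass (adjusted p = 1; 0.11 with the pair as a block).

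**Figure D4:**
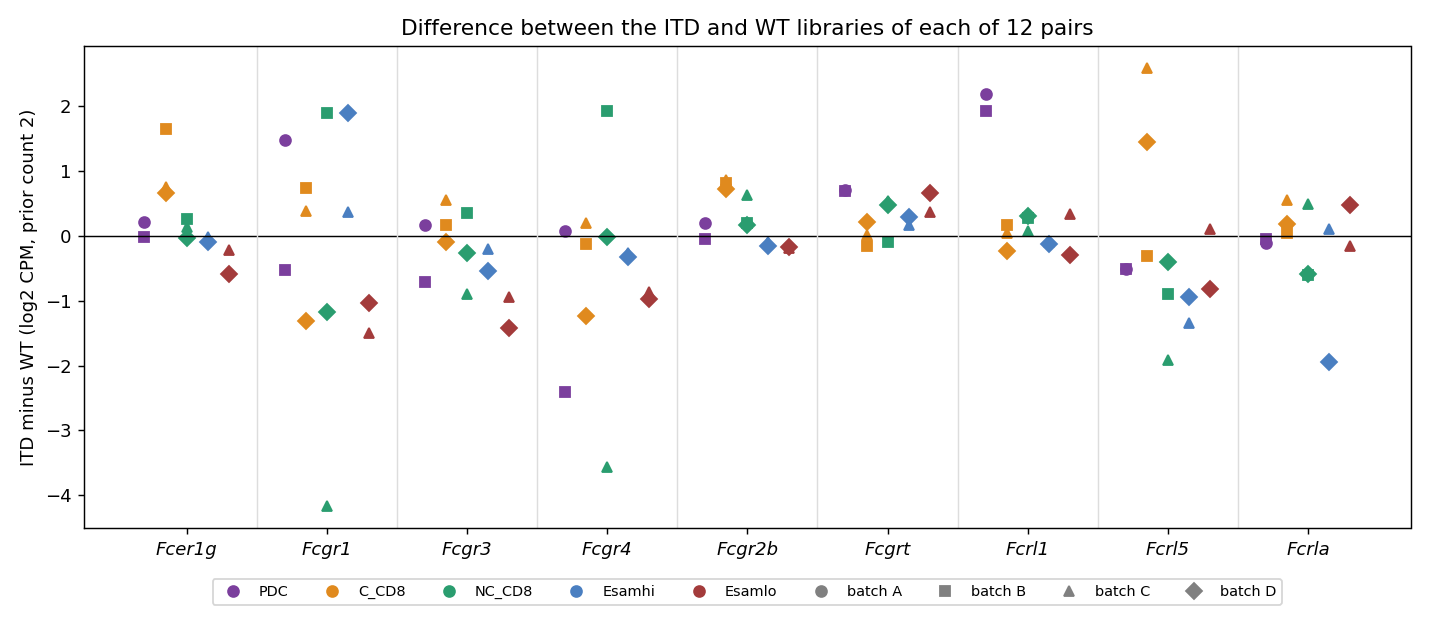
Difference between the ITD and WT library of each of the 12 pairs (log2 CPM, prior count 2) for the 9 genes, with colours for subsets and symbols for batches; points above 0 are higher in ITD. Fcrl1 in PDC, Fcer1g and Fcgr2b in C_CD8 cells lie above 0 in every pair of that subset, and Fcgrt in 10 of 12 pairs.

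In C_CD8 cells no member passed in edgeR's quasi-likelihood test, where 0.0166% of all genes did. At an unadjusted p under 0.05 there were 2, Fcer1g and Fcgr2b, and DESeq2 and the fit with the pair as a block called both. Fcer1g was at 64.1, 34.9 and 38.5 CPM in ITD mice, against 20.4, 20.6 and 24.3 CPM in WT mice. No ITD library overlapped with a WT library, and log2 was 1.07 ± 0.19 (adjusted p = 0.0695; 1.02 and 0.0082 with the block). Fcgr2b was at 27.8, 30.8 and 30.5 CPM in ITD mice, against 15.9, 17 and 18.5 CPM in WT mice, without overlap (log2 0.80 ± 0.18, adjusted p = 0.18; 0.80 and 0.00301 with the block). Of all genes, 1.23% passed in this subset with the block and 0.582% with DESeq2. Fcer1g passed without a block too when ITD replicate 2 was left out (log2 1.23, adjusted p = 0.0121) or the filter was omitted (adjusted p = 0.0435).

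Markers of other dendritic cell subsets, in which both genes are more abundant, also lay apart in C_CD8 cells. Plasmacytoid markers summed to 318, 317 and 359 CPM in ITD and to 221, 255 and 240 CPM in WT libraries. Type 2 markers summed to 252, 116 and 118 CPM in ITD and to 89.6, 77 and 107 CPM in WT libraries. ITD replicate 1, with the highest type 2 sum, had the highest Fcer1g level. Its Fcgr2b level was the lowest of the ITD libraries, at 27.8 CPM against 30.8 and 30.5 CPM. All 10 genes of each list had reads in both groups, and their part in the 2 differences was not tested.

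In NC_CD8 cells no member passed (0.31% of all genes did), and none had an unadjusted p under 0.05 in edgeR without a block or in DESeq2. With the pair as a block no member passed either, but Fcgr2b and Fcgrt had an unadjusted p under 0.05. Fcgr2b lay higher in ITD libraries in 3 of 3 pairs, with log2 0.34 ± 0.18 (adjusted p = 0.746). Fcgr1 had 5, 0 and 5 reads in ITD libraries, against 0, 39 and 12 in WT libraries, with log2 -2.15 ± 1.45 (adjusted p = 0.867) and, without WT replicate 2, -0.93 ± 1.62 (adjusted p = 1). The 39 reads are those of WT replicate 2, with its macrophage sum of 1115 CPM. In PDC, C_CD8, Esamhi and Esamlo cells no gene of the signalling list, the immunoglobulin receptors or the γ chain and DAP12 receptors passed in edgeR without a block, at medians from -0.50 to 0.43 in log2, where the median over all genes was -0.01 to 0.00.

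In Esamhi cells no member passed, nor did any gene of the table (0%), and no member had an unadjusted p under 0.05 in edgeR or DESeq2. Fcgr2b was at 30.7 and 23.8 CPM in ITD and 32.7 and 26.7 CPM in WT mice. Fcer1g was at 326 and 325 CPM in ITD and 328 and 345 CPM in WT mice. The log2 differences of these 2 genes were -0.12 ± 0.22 and -0.05 ± 0.22.

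In Esamlo cells no member passed in edgeR or DESeq2 (0.00553% of all genes did in edgeR), and both tools gave Fcgr3 and Fcgrt an unadjusted p under 0.05. With the pair as a block Fcer1g had one as well, and no member passed. Fcgr3 was at 38.6 and 23.8 CPM in ITD mice, against 74.7 and 64.2 CPM in WT mice, without overlap (log2 -1.16 ± 0.55, adjusted p = 1; 0.126 with the block). Fcgr4, at 18 and 14.4 CPM in ITD against 33.1 and 28.4 CPM in WT mice, did not overlap either (log2 -0.93 ± 0.83, adjusted p = 1). Fcer1g was at 387 in both ITD libraries, against 452 and 584 CPM in WT mice (log2 -0.42 ± 0.22, adjusted p = 1). Fcgr2b, at 155 and 123 CPM in ITD and 176 and 138 CPM in WT mice, overlapped. Fcgrt had 209 and 168 CPM in ITD and 161 and 106 CPM in WT mice (log2 0.49 ± 0.21, adjusted p = 1).

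Markers of other cells that carry Fcgr3 or Fcgr4 were read beside these values. In Esamlo cells, NK cell markers summed to 13.6 and 17.3 CPM in ITD against 64.7 and 45 CPM in WT mice, and neutrophil markers to 42.1 and 28.9 CPM in ITD against 68.5 and 61.1 CPM in WT mice. Neither overlapped. All 10 NK markers had reads in both groups, and of the 10 neutrophil markers Elane was at 0 in ITD and Mpo and Camp in WT mice. The part of these other cells in the Fcgr3 and Fcgr4 values was not tested.

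Averaged over the 5 subsets with equal weight, no member passed in edgeR, where 0.359% of all genes did. At an unadjusted p under 0.05 there were 3, Fcgr4, Fcgrt and Fcrl1, and DESeq2 and the fit with the pair as a block called Fcgrt and Fcrl1. Without a block, Fcgrt passed when Esamlo WT replicate 1 was left out (adjusted p = 0.0388). Fcrl1 passed with RLE factors (0.0423) and when any 1 of 4 libraries was left out (adjusted p from 0.0237 to 0.0494): PDC ITD replicate 2, C_CD8 WT replicate 2, C_CD8 ITD replicate 3 or Esamlo ITD replicate 2. Fcgrt was higher in ITD in 10 of 12 pairs, by log2 0.35 ± 0.09 (adjusted p = 0.0994; 0.00574 with the block). The 2 pairs in which it was lower were those of C_CD8 and NC_CD8 cells from batch B. Fcrl1 was higher in 8 of 12 pairs, by log2 0.52 ± 0.11 (adjusted p = 0.0504; 0.00751 with the block), with PDC contributing 2.47 and the other subsets -0.11 to 0.22. Fcgr4 was lower in 9 of 12 pairs (log2 -1.0 ± 0.41, adjusted p = 0.436), and the value was -0.76 ± 0.38 (adjusted p = 0.65) without NC_CD8 WT replicate 2, the library with a macrophage sum of 1115 CPM. Of all genes, 6.83% passed with the block and 1.7% with DESeq2.

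Whether the ITD effect differed among the 5 subsets was tested directly. No member passed in edgeR, nor did any gene (0%). Unadjusted p was under 0.05 for Fcgr2b, Fcer1g and Fcrl1. DESeq2 called Fcer1g (adjusted p = 0.00737) and Fcrl1 (adjusted p = 0.0121), which edgeR gave adjusted p values of 0.554 and 0.405, and 0.0955 and 0.0898 with the block. Of all genes, 0.262% passed with DESeq2.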

How the data were processed

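The authors deposited a table of raw counts per gene for 24 libraries, which was the only measurement used. Per the labels' protocols, RNA of sorted cells was isolated with PicoPure columns, in some cases after Trizol, and amplified with SMART-seq v4. The submitters' processing notes name bcl2fastq 1.8.4, Bowtie2, DESeq2 1.8.2 and build mm10. Counter, annotation and strandedness: not given in the sources used here. Rows without a gene symbol held 0.561% of counts.

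The main test was edgeR 4.0.16 quasi-likelihood (R 4.3.3) with TMM factors (0.926 to 1.11). It fitted 10 group means over all 24 libraries after filterByExpr with a minimum count of 10, and Benjamini-Hochberg adjustment over 18093 genes with a threshold of 0.05. SE was computed from the fold change and F. The alternatives were a replicate block, DESeq2 1.42.0, RLE factors, no filter, and each library left out. The block was the pair of libraries that share subset and batch for genotype, and the experiment batch for subsets. The labels give the batch, and paired libraries deviated together (r from 0.134 to 0.646 across genes, all above 0.1). The 12 pairs give 9 separate correlations, since both pairs of a subset with 2 libraries per genotype share 1 value. Replicate libraries differed by more than counting noise (chi-square per degree of freedom 13.3 to 86.3 over 18 pairs), so none was counted as a duplicate. The fit was tested on simulated data. Log2 CPM used a prior count of 2. Exon lengths came from GENCODE M21.

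The members and all lists were chosen with earlier results of these data known. Similar genes are the 3 with the highest r for each member, and pathway genes were named among the 4 with the lowest adjusted p of a list.

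Some results of genes outside the 9 members are not reported here.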

Additional observations from a re-analysis of the deposited data

How the results depend on the processing

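Alternatives were computed for each member in ITD against WT and in pairs of WT subsets, and for pairs of ITD subsets only as counts of calls. Of the results for ITD against WT and for WT subsets, 63 were called by at least 1 fit and had 594 alternative values. The direction and the side of the threshold held in 56 of 63 with DESeq2, 61 with RLE factors, 60 without the filter and 49 with a replicate block. With a library left out they held in 281 values, while 48 lost the call, 10 gained one and 3 changed sign. Another 81 results were called by no fit, and 34 of these changed sign in at least 1 alternative. The number of members called for ITD against WT in PDC was 0 to 1 when a library was left out. In C_CD8 cells, against 0 without a block, it was 2 with the replicate block on the pair, 2 with DESeq2, 1 without the filter, and 0 to 1 with a library left out. For the average over the subsets it was 2 with the replicate block, 2 with DESeq2, 1 with RLE factors and 0 to 1 with a library left out. For the difference among subsets it was 2 with DESeq2. Fcgr2b in Esamhi against PDC of WT mice was -0.51 to 0.00 (log2) with a library left out, with 0.00 without PDC WT replicate 2. Fcgr4 in NC_CD8 against PDC of WT mice was -0.08 with the batch as a replicate block. Fcgr3 in C_CD8 against PDC of WT mice was -0.61 to 0.44 with a library left out, with 0.44 without PDC WT replicate 2 and 0.09 without C_CD8 WT replicate 1. The cause was not tested. The batch block also changed calls between WT subsets for Fcgrt (-0.56, adjusted p = 0.0125) and Fcrl5 (2.42, 0.0466) in Esamlo against C_CD8. In Esamhi against PDC it ended those of Fcgr3 (0.18, 0.773) and Fcgr4 (2.51, 0.0578). It gave calls for Fcrl5 in NC_CD8 against PDC (-2.97, 0.0203) and Fcgr3 in C_CD8 against PDC (-1.19, 0.0186). Besides these and those given with the results, the block changed no other call between WT subsets or between genotypes. Fcgr1 and Fcrl5 rest on few reads, and the part of depth was not tested.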
